A study of Homo sapiens with 12 samples.

Results

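The genes described here are 40 genes of DNA replication and of the passage from G1 into S phase, taken by name from a table of 22963 gene names measured in 12 RNA-seq libraries. All 40 were found. They comprise 10 genes that load the replicative helicase, 6 that activate it, 5 of the sliding clamp and its loader, 7 polymerase and lagging-strand genes, 4 genes of deoxynucleotide supply, 7 regulators of the G1/S step and UHRF1. The libraries form 4 groups of 3 biological replicates from 2 human hepatocellular carcinoma cell lines with no drug treatment. PLC/PRF5 cells carried an empty vector (control) or overexpressed EGR1, and MHCC97H cells were parental (wild type) or labelled EGR1 knockout. EGR1 is a zinc finger transcription factor of the immediate early response. Its coding sequence was delivered with a lentiviral plasmid driven by a CMV promoter, whereas the knockout was made with CRISPR/Cas9 and single clones were isolated, so a property of a clone cannot be told apart from the loss of EGR1. Nothing in the sources states that the replicates came from separately derived lines, so the p-values measure only the spread between these libraries, which may be technical.

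Before S phase, the origin recognition complex with CDC6 and CDT1 loads the MCM2 to MCM7 ring onto DNA, and CDC45 and the GINS complex then turn the ring into a moving helicase. Primase starts each strand, replication factor C (RFC) places the PCNA clamp, and the polymerases extend, while FEN1 and LIG1 finish the lagging strand. Most of these genes are switched on together by E2F factors once cyclin D with CDK4 and cyclin E with CDK2 have inactivated the retinoblastoma protein, and their mRNAs are commonly read as a sign of cycling cells, in liver cancer as elsewhere.

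The level of EGR1 was examined first. In PLC/PRF5 cells EGR1 was at 1.97, 1.43 and 2.03 FPKM (fragments per kilobase of transcript, scaled to the mapped fragments of the library) in the vector libraries and at 56.3, 50.2 and 52.2 FPKM in the overexpression libraries. The log2 fold change was 4.27 ± 0.11 (SE, adjusted p = 1.58e-07). In MHCC97H cells EGR1 was at 20.2, 23.1 and 21.2 FPKM in the parental libraries and at 35.2, 50.3 and 32.9 FPKM in those labelled knockout, which is higher in 3 of 3 (0.83 ± 0.15, adjusted p = 0.00126). After a correction for transcript GC content and length the difference was 0.45 (adjusted p = 0.0490). The study checked its knockout clones by western blot and DNA sequencing, and which of its clones gave these libraries is not given in the sources used here. The mRNA level alone does not show the loss that the label names, and FPKM over the whole transcript cannot show whether its coding sequence was edited. Directions in MHCC97H are given as the libraries labelled knockout against the parental libraries. Here and throughout, fold changes are on the scale log2(FPKM + 1), which understates the change of low genes, and a gene is called when its adjusted p over all genes tested is under 0.05.

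The libraries held 376335 to 437652 FPKM in total, with the 40 genes at 0.414% to 0.459% of it, and replicate libraries correlated across genes at a Pearson's r of 0.993 to 0.997. How many reads lie behind each value is not known. The epithelial keratin KRT8 was at 970 FPKM or more in every library. ALB, the defining hepatocyte product, was at 108 to 210 FPKM in PLC/PRF5 cells but at 0.611 to 1.21 FPKM in parental MHCC97H cells. The 12 hepatocyte and liver cancer markers summed to 4040 to 4311 FPKM with vector and 4805 to 6064 with EGR1, and to 1465 to 1850 in parental cells and 2248 to 2683 in those labelled knockout. In MHCC97H cells nearly all of it was KRT8 (970 to 1251 parental, 1638 to 1936 labelled knockout) and the keratin KRT18 (473 to 574 and 567 to 704). SERPINA1 was at 1334 to 1438 FPKM with vector and 1994 to 2932 with EGR1, but at 0.158 to 0.290 in parental MHCC97H cells. The 9 fibroblast and endothelial markers summed to 2.80 to 4.15 FPKM in PLC/PRF5 cells, 12.5 to 16.2 in parental MHCC97H cells and 6.98 to 7.80 in those labelled knockout. LUM made up most of the sum in parental cells (7.40 to 10.9 FPKM, against 0.910 to 1.41 in those labelled knockout). The 6 blood cell markers summed to 95.4 to 178 FPKM in PLC/PRF5 cells, nearly all of it LYZ, with PTPRC at 0 in all 6 of those libraries, and to 0.861 to 1.91 in MHCC97H cells. The part of these marker shifts in the results was not tested.

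Sequence motifs were counted in the promoters of the members. As most of these genes are driven by E2F factors, an excess of E2F motifs was to be anticipated from the list itself. RefSeq promoter windows of 300 bases on GRCh38.p14, from 250 bases before the gene start to 50 after it, were matched for 34 of the 40 members. CCND1, CCNE2, CDK2, GINS4, MCM4 and MCM5 were not matched. An E2F motif (TTTCGCGC, TTTGGCGC or TTTCCCGC on either strand) was in 19 of 34 windows (55.9%), against 4.76% of the 9644 windows of genes tested in either line and 2.79% of all 27305 windows. A CCAAT box (CCAAT on either strand) was likewise in 19 of 34 (55.9%), against 36.9% and 35.7%. An EGR1 motif (GCGTGGGCG or GCGGGGGCG on either strand, each of which contains the GGGCG letters of a GC box) was in 3 of 34 (8.82%), namely LIG1, POLD1 and UHRF1, against 9.49% and 5.70%. A match is a description of letters and not of binding. Among genes called higher, called lower and not called in MHCC97H cells, the E2F motif was in 6 of 11, 5 of 10 and 8 of 13 windows.

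The 250 bases before the start are shown, 5′ to 3′ on the strand of the gene, for the 5 members that were called in both cell lines. Capitals mark an E2F motif in RFC3 and TYMS, read on the opposite strand and beginning 55 and 39 bases before the start, and 3 CCAAT boxes in RRM2. No motif overlapped another, and TK1 and CCNE1 held none of the searched letters in this stretch.
RFC3 (RefSeq, GRCh38.p14, chr13:33817899-33818148, plus strand): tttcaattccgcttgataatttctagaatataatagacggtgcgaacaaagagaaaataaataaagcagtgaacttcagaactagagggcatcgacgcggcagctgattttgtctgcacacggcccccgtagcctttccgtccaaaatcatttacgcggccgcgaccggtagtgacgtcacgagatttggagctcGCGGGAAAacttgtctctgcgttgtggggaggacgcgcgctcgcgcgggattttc
TK1 (RefSeq, GRCh38.p14, chr17:78187205-78187454, minus strand): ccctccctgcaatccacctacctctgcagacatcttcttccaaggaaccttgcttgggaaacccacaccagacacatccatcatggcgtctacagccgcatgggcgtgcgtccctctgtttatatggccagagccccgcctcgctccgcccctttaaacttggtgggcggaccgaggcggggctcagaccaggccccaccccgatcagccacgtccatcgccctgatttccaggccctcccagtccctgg
TYMS (RefSeq, GRCh38.p14, chr18:657403-657652, plus strand): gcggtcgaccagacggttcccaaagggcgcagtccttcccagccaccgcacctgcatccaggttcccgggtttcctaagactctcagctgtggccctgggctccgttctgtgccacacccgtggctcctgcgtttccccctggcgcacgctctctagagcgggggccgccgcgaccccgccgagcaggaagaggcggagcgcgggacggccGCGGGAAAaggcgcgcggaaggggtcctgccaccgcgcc
CCNE1 (RefSeq, GRCh38.p14, chr19:29811741-29811990, plus strand): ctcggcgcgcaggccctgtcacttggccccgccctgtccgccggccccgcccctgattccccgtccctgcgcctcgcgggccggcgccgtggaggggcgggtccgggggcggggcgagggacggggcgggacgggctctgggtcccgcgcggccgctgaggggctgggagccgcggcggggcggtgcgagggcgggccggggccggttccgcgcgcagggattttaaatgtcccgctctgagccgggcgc
RRM2 (RefSeq, GRCh38.p14, chr2:10122489-10122738, plus strand): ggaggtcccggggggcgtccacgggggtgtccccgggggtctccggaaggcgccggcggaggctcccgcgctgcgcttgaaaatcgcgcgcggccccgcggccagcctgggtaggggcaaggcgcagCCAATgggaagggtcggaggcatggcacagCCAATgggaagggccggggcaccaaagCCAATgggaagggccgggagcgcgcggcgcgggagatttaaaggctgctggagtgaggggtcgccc

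All 40 members were expressed in all 12 libraries and passed the filter of a mean of 1 FPKM in each comparison. In vector PLC/PRF5 cells the group means ran from 2.08 FPKM for CCNE2 to 150 for CCND1, with a median of 33.1. In parental MHCC97H cells they ran from 1.80 for CCNE2 to 198 for MCM7, with a median of 24.9. The median of all genes at 1 FPKM or more was 9.67 and 9.59 FPKM in the same groups. The coefficient of variation between the 3 replicates was under 10% for 31 to 33 of the 40 members in each group, and was largest for CCNE2, the least abundant member, in 3 of the 4 groups (up to 54.1%). Of the 40 genes, 18 share exon bases with another annotated gene, 16 of them on the opposite strand. The strand setting of the quantification is not given in the sources used here, so members with long overlaps on the opposite strand are uncertain to that extent, namely CCNE2 (1629 bases shared with INTS8), CDK4 (1369 with TSPAN31), GINS4 (1159 with AC009630.2), MCM2 (1113 with AC023593.1) and TYMS (967 with ENOSF1). RRM2 shares 1077 bases with AC007240.1 on the same strand, which no strand setting would separate. In addition, 7 members have annotated pseudogenes of their name, RFC3, RRM2 and TYMS among them.

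In PLC/PRF5 cells with EGR1 overexpression, the mRNAs of RRM2, TYMS and TK1 and of cyclin E1 were lower, and those of 2 clamp loader subunits were higher. Of these calls, only that of the clamp loader gene RFC3 held whichever library was left out. Of the 40 members, 4 rose (RFC3, RFC4, MCM10 and CCNE2) and 6 fell (TK1, TYMS, RRM2, CCNE1, GINS1 and CDT1), that is 25.0%. Among all 11671 genes tested, 29.6% were called, 19.2% higher and 10.4% lower, so the share of members called was no greater than that of genes in general. The median log2 fold change was 0.01 for the members and 0.09 for all genes. The 2 groups did not overlap for 20 of the 40 members, against 47.7% of all genes. In bulk RNA, fewer cells expressing a gene and less RNA per cell cannot be told apart.

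**Figure D1:**
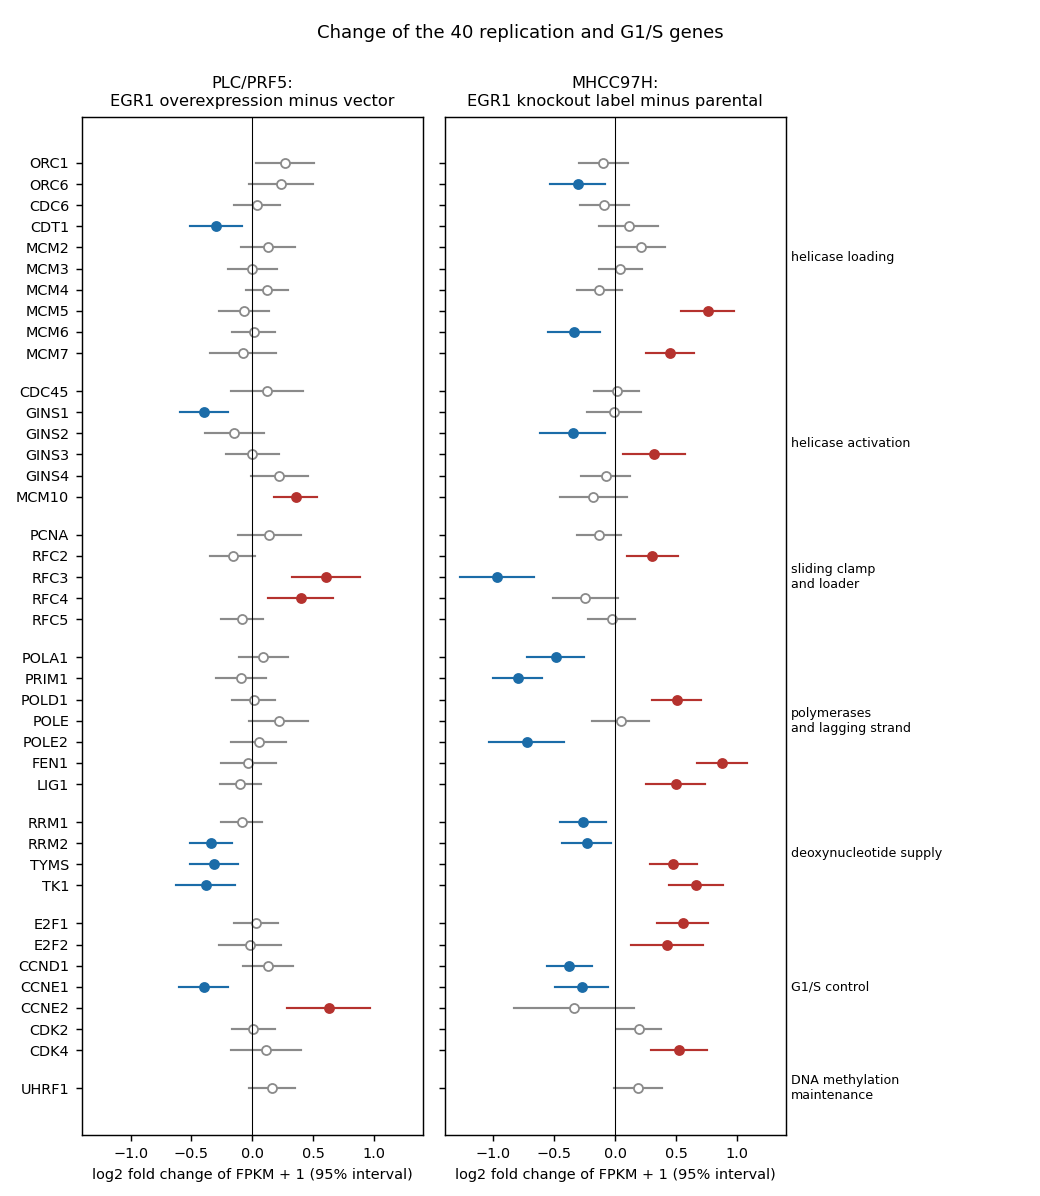
Log2 fold change of FPKM + 1 (x axis) for each of the 40 members, grouped by role, in PLC/PRF5 cells (left) and MHCC97H cells (right). Points are estimates from 3 libraries against 3 and lines their 95% intervals, with red for called higher, blue for called lower and open grey for not called. On the left 4 members are red and 6 blue, on the right 12 and 11, and RFC3 lies at 0.61 on the left and -0.97 on the right.

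Of the 4 members that supply deoxynucleotides, 3 were lower with EGR1, and each of these 3 calls was lost when certain single libraries were left out. None of 12 other enzymes of nucleotide supply was called (median log2 fold change 0.08), against 29.6% of all genes. RRM2, the regulated subunit of ribonucleotide reductase, was at 97.2, 100.0 and 101 FPKM with vector and at 79.6, 78.7 and 76.1 FPKM with EGR1 (-0.34 ± 0.08, adjusted p = 0.0117). TYMS, which makes thymidylate, was at 123, 139 and 131 FPKM with vector and at 103, 101 and 110 FPKM with EGR1 (-0.32 ± 0.09, adjusted p = 0.0254). TK1, the thymidine kinase of S phase, was at 108, 113 and 96.8 FPKM with vector and at 72.8, 80.3 and 90.9 FPKM with EGR1 (-0.38 ± 0.11, adjusted p = 0.0268). For each of these 3 genes every EGR1 library was below every vector library, and 47.7% of all genes had groups without overlap. RRM1, the large reductase subunit, was at 56.8 ± 0.902 FPKM with vector and 53.4 ± 1.33 with EGR1 (SD, n = 3 each) and was not called (-0.09, adjusted p = 0.40), although it was called lower after the GC and length correction (-0.23, adjusted p = 0.0293). The summed level of the 4 genes was 393 ± 13.3 FPKM with vector and 318 ± 11.7 with EGR1.

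**Figure D2:**
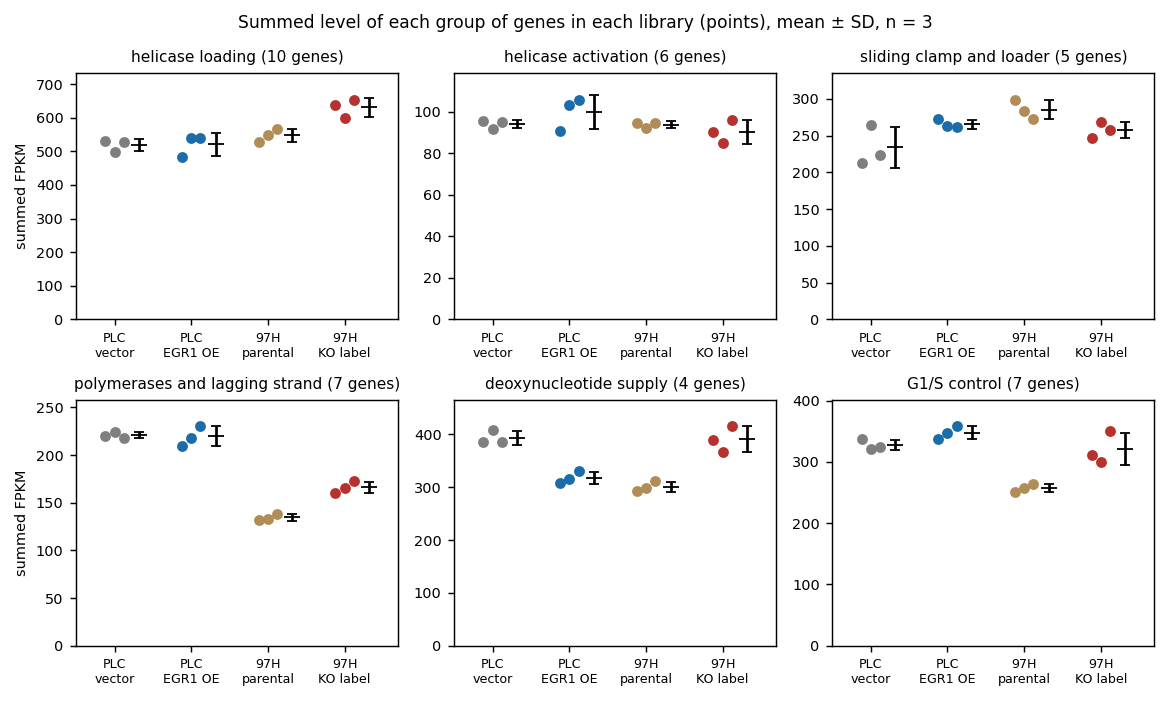
Summed FPKM (y axis, from 0) of the genes of each role in each of the 12 libraries (points), with mean ± SD over 3 libraries; UHRF1 is left out as a single gene. PLC is PLC/PRF5, 97H is MHCC97H, OE is overexpression and KO label is labelled knockout. The deoxynucleotide supply genes sum to 385 to 408 FPKM in the vector libraries and 308 to 330 in the EGR1 libraries.

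In the clamp loader, which opens PCNA and closes it around DNA, RFC3 was at 23.2, 33.5 and 28.8 FPKM with vector and at 44.8, 43.6 and 41.9 FPKM with EGR1 (0.61 ± 0.12, adjusted p = 0.00822). RFC4 was at 30.4, 38.7 and 28.5 FPKM with vector and at 45.4, 42.7 and 40.5 FPKM with EGR1 (0.40 ± 0.12, adjusted p = 0.0342). The RFC4 call held in only 1 of the 6 fits that left out 1 library. Both genes were higher in every EGR1 library than in any vector library, whereas the vector libraries themselves were spread widely. Groups without overlap were found for 47.7% of all genes. RFC2 (-0.16), RFC5 (-0.09) and PCNA (0.14), the clamp itself, were not called.

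Among the helicase genes 2 of the 6 that activate the ring and 1 of the 10 that load it were called, where 29.6% of all genes were. None of MCM2 to MCM7 was called, with log2 fold changes from -0.08 for MCM7 to 0.13 for MCM2, and the ring genes summed to 430 ± 18.4 FPKM with vector and 432 ± 34.1 with EGR1. ORC1, ORC6 and CDC6 were not called either (0.27, 0.23 and 0.04). CDT1, the licensing factor that is destroyed in S phase, fell from 35.5 ± 1.55 to 28.7 ± 2.82 FPKM (-0.30, adjusted p = 0.0405), and lost its call after the GC and length correction (-0.18). GINS1, a subunit of the GINS complex, was at 11.8, 11.4 and 11.4 FPKM with vector and at 9.2, 8.16 and 8.26 FPKM with EGR1 (-0.40 ± 0.09, adjusted p = 0.0110). MCM10, which helps the assembled helicase to start, was at 15.5, 16.3 and 15.9 FPKM with vector and at 20.6, 21.0 and 20.4 FPKM with EGR1 (0.36 ± 0.08, adjusted p = 0.0103). GINS1 and MCM10 each separated the 2 groups completely, in opposite directions, as did 47.7% of all genes in either direction. GINS2, GINS3, GINS4 and CDC45 were not called (-0.15 to 0.22).

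Of the polymerase and lagging-strand genes, none of 7 was called by limma, and none reached an unadjusted p under 0.05 (-0.10 for LIG1 to 0.22 for POLE). After the GC and length correction PRIM1 was called lower (-0.31, adjusted p = 0.0401). Among the G1/S regulators the 2 cyclin E genes moved apart. CCNE1 was at 13.7, 12.2 and 12.3 FPKM with vector and at 9.48, 9.76 and 9.01 FPKM with EGR1 (-0.40 ± 0.09, adjusted p = 0.0112). CCNE2 was at 1.53, 2.78 and 1.94 FPKM with vector and at 3.27, 3.88 and 3.95 FPKM with EGR1 (0.63 ± 0.15, adjusted p = 0.0155). The ratio of CCNE1 to CCNE2 FPKM restates these 2 changes. It was 6.57 ± 2.29 with vector and 2.56 ± 0.311 with EGR1 (SD, n = 3), with ranges of 4.40 to 8.97 and 2.28 to 2.90. The CCNE2 call was lost after the GC and length correction (0.26, adjusted p = 0.0771). CCND1, CDK4, CDK2, E2F1 and E2F2 were not called (-0.02 to 0.13), nor was UHRF1, which guides maintenance DNA methylation to replicated DNA (0.16).

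The members not called in PLC/PRF5 cells had 95% intervals between -0.39 and 0.51 on the log2 scale. After the GC and length correction 3 members were called higher and 7 lower, against 16.8% and 17.8% of all genes, with 8 of the 10 calls kept. The number of calls depended on single libraries: it was 7, 10 and 5 without vector replicate 1, 2 or 3 and 10, 3 and 4 without EGR1 replicate 1, 2 or 3. RFC3 alone was called in all 6 of those fits, although the direction of the other 9 held in each. RFC4 was called in 1 of the 6 fits, that without vector replicate 2. CDT1 was called in 2, those without vector replicate 2 or EGR1 replicate 1. GINS1 and MCM10 lost their calls without EGR1 replicate 2 only. TYMS and CCNE2 lost theirs without vector replicate 3 or EGR1 replicate 2 or 3, and RRM2 without vector replicate 3 or EGR1 replicate 3. TK1 lost its call without vector replicate 1 or 2 or EGR1 replicate 2, and CCNE1 without EGR1 replicate 3. Ranges over the fits were RFC4 0.31 to 0.53, CDT1 -0.37 to -0.23, TK1 -0.47 to -0.31, TYMS -0.36 to -0.27, RRM2 -0.36 to -0.32, CCNE1 -0.43 to -0.35, GINS1 -0.45 to -0.37, MCM10 0.34 to 0.38 and CCNE2 0.49 to 0.78.

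In MHCC97H cells the members split into genes that were higher and genes that were lower in the libraries labelled knockout, with both directions in 6 of the 7 roles. Of the 40, 12 were higher and 11 lower, that is 57.5%, where 66.3% of the 11577 genes tested were called, 34.8% higher and 31.5% lower. The groups did not overlap for 29 members (72.5%), against 71.8% of all genes, so neither share set the members apart. The median log2 fold change was -0.02 for the members and 0.02 for all genes. Scaling all libraries to the same total moved these medians to -0.17 and -0.11 and the split to 9 higher and 15 lower, and quantile normalization to 9 and 14, so the balance between the 2 directions moved with the scaling.

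The direction moved with the base composition of the transcripts, whose part in the result was not tested. The 12 members called higher had a median transcript GC content of 56.4% (lowest 48.1%), and the 11 called lower had 43.7% (highest 52.9%). Across the 40 members Spearman's rho between GC content and log2 fold change was 0.777, and across all genes tested it was 0.767. The genes share their libraries, so this is a description with no p. In PLC/PRF5 cells the same coefficient was -0.263 for the members and -0.449 for all genes. When a trend on GC content and length was removed from each library, 4 members were called higher and 12 lower, against 24.3% and 22.4% of all genes. Of the 23 calls 9 were kept, 14 were lost and none was turned, and 7 members were gained. The kept calls were MCM5, FEN1 and TYMS (higher) and RFC3, PRIM1, POLE2, GINS2, CCND1 and CCNE1 (lower). This correction removes biological change that follows GC content along with technical change.

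**Figure D3:**
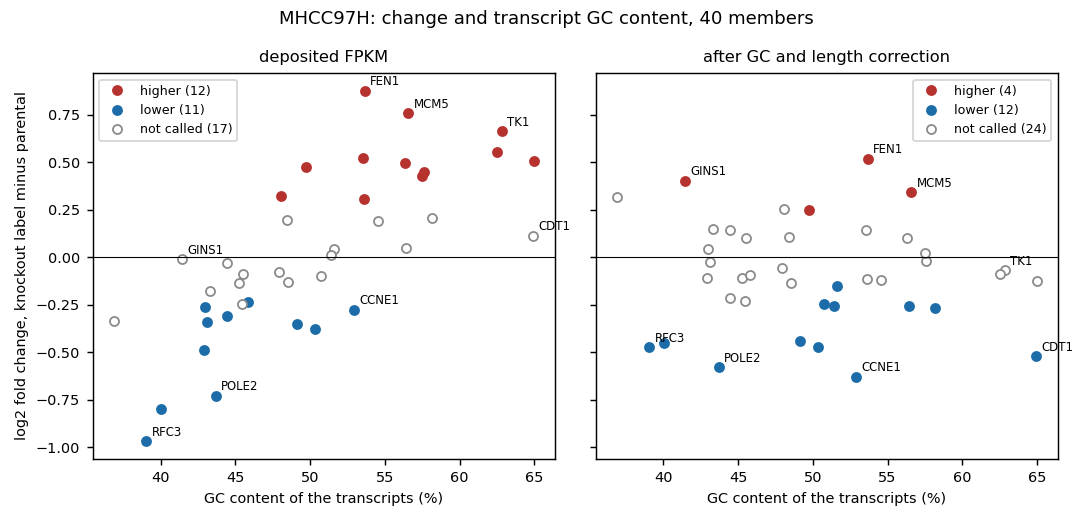
Log2 fold change in MHCC97H cells, knockout label minus parental (y axis), against the GC content of the annotated transcripts in percent (x axis) for the 40 members, from the deposited FPKM (left) and after the GC and length correction (right). Red is called higher, blue called lower and open grey not called. The rank correlation is 0.777 on the left and -0.090 on the right, FEN1 and MCM5 stay red, RFC3, POLE2 and CCNE1 stay blue, and TK1 falls to -0.07.

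Among the genes that load the helicase, MCM5 was at 29.5, 31.9 and 35.6 FPKM in parental libraries and at 55.6, 52.2 and 58.0 FPKM in those labelled knockout (0.76 ± 0.10, adjusted p = 0.000197, and 0.34 after correction). MCM7 was also higher (198 ± 13.2 against 270 ± 12.1 FPKM, 0.45), and MCM6 (-0.34) and ORC6 (-0.31) were lower. After correction the values for these 3 genes were -0.02, -0.02 and -0.22, and none was called. The subunits of the ring, which are used in equal numbers, did not shift together, and the ratio of MCM7 to MCM6 FPKM was 5.03 ± 0.624 in parental libraries and 8.75 ± 0.794 in those labelled knockout (SD, n = 3). MCM2, MCM3, MCM4, ORC1, CDC6 and CDT1 were not called (-0.13 to 0.21). CDT1, MCM2, MCM3 and ORC1 were called lower after correction (-0.52, -0.26, -0.15 and -0.25).

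For helicase activation, GINS3 was higher (5.76 ± 0.748 against 7.41 ± 0.419 FPKM, 0.32) and GINS2 lower (13.1 ± 0.329 against 10.1 ± 1.68 FPKM, -0.35). Of the 2, GINS2 kept its call after correction (-0.44, adjusted p = 0.00815). CDC45, GINS1, GINS4 and MCM10 were not called (-0.18 to 0.01), but after correction CDC45 was called lower (-0.26) and GINS1 higher (0.40).

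The clamp loader held the largest fall among the members. RFC3 was at 25.2, 19.9 and 17.3 FPKM in parental libraries and at 10.3, 10.7 and 9.15 FPKM in those labelled knockout (-0.97 ± 0.14, adjusted p = 0.000346), and remained lower after correction (-0.47, adjusted p = 0.00140). RFC2 was higher (0.31), without a call after correction (-0.11), and RFC4, RFC5 and PCNA were not called (-0.24, -0.03 and -0.13).

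The polymerase and lagging-strand genes had both the most calls (6 of 7, where 66.3% of all genes were called) and the widest range. PRIM1, the catalytic subunit of primase, was at 25.9, 24.3 and 24.9 FPKM in parental libraries and at 12.8, 14.6 and 14.5 FPKM in those labelled knockout (-0.80 ± 0.09, adjusted p = 0.000110, and -0.45 after correction). POLE2, an accessory subunit of polymerase epsilon, was at 11.97, 11.4 and 9.79 FPKM and at 6.28, 7.51 and 5.17 FPKM in the same order (-0.73 ± 0.14, adjusted p = 0.00150, and -0.58 after correction). FEN1, the nuclease that trims Okazaki fragment flaps, was at 33.3, 36.6 and 38.3 FPKM and at 63.3, 65.7 and 72.1 FPKM (0.88 ± 0.09, adjusted p = 8.14e-05, and 0.52 after correction). In PRIM1 and POLE2 every library labelled knockout was below every parental library, and in FEN1 every one was above. Such separation was seen for 71.8% of all genes. POLD1 (0.50) and LIG1 (0.50) were higher and POLA1 lower (-0.49), and all 3 lost their calls after correction (-0.12, 0.10 and -0.11). POLE, the catalytic subunit of polymerase epsilon, was at 15.3 ± 1.22 and 15.9 ± 1.45 FPKM (0.05) and was called lower after correction (-0.26, adjusted p = 0.0303).

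In deoxynucleotide supply all 4 genes were called, in 2 directions, where 66.3% of all genes tested were called. TYMS was at 67.8, 68.0 and 71.7 FPKM in parental libraries and at 95.7, 90.1 and 104 FPKM in those labelled knockout (0.48 ± 0.09, adjusted p = 0.00128, and 0.25 after correction). TK1 was at 123, 133 and 147 FPKM and at 209, 199 and 231 FPKM (0.66 ± 0.10, adjusted p = 0.000468). RRM2 was at 44.5, 40.2 and 40.2 FPKM and at 37.3, 32.9 and 35.4 FPKM (-0.24 ± 0.09, adjusted p = 0.0397), and RRM1 was lower as well (-0.26). The 2 thymidylate genes were thus higher and the 2 reductase genes lower in every library labelled knockout, and 71.8% of all genes also had groups without overlap. After correction only TYMS kept its call, and TK1, whose transcript has a GC content of 62.8%, was at -0.07, RRM2 at -0.09 and RRM1 at 0.04.

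In G1/S control, E2F1, the activating E2F factor, was at 19.9, 21.8 and 23.9 FPKM in parental libraries and at 32.2, 32.1 and 33.2 FPKM in those labelled knockout (0.55 ± 0.09, adjusted p = 0.000817, and -0.09 after correction). CDK4, the partner kinase of cyclin D, was at 138, 141 and 145 FPKM and at 193, 186 and 235 FPKM (0.52 ± 0.10, adjusted p = 0.00196, and 0.14 after correction). E2F2 was higher too (0.43, and 0.02 after correction). CCND1, or cyclin D1, was lower (55.7 ± 1.25 against 42.8 ± 2.69 FPKM, -0.38, adjusted p = 0.00348) and stayed so after correction (-0.47). CCNE1 was at 9.27, 9.37 and 8.38 FPKM and at 7.29, 7.49 and 6.98 FPKM (-0.28 ± 0.10, adjusted p = 0.0283, and -0.63 after correction). CCND1 and CCNE1 were lower and the E2F genes and CDK4 higher without overlap between the groups, which held for 71.8% of all genes tested. E2F1, E2F2 and CDK4 lost their calls after correction. The ratio of CCND1 to CDK4 FPKM was 0.394 ± 0.00334 in parental libraries and 0.211 ± 0.0296 in those labelled knockout. CDK2 (0.19), CCNE2 (-0.34) and UHRF1 (0.19) were not called.

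The intervals of the 17 members not called in MHCC97H cells ran from -0.83 (CCNE2) to 0.41. Leaving out 1 library at a time gave 15, 16 and 23 calls without parental replicate 1, 2 or 3 and 18, 21 and 20 without knockout-labelled replicate 1, 2 or 3, with 15 members called in all 6 fits. Those lost at least once were ORC6, GINS2, GINS3, RFC2, RRM1, RRM2, E2F2 and CCNE1. All 8 were lost without parental replicate 1, where their values were -0.24, -0.33, 0.24, 0.26, -0.24, -0.19, 0.38 and -0.26.

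Of the 40 members, 5 were called in both cell lines, 5 in PLC/PRF5 cells alone, 18 in MHCC97H cells alone and 12 in neither. The share of all genes called in both lines was not computed, so these counts do not set the members apart. Among the 5, RFC3 rose with EGR1 overexpression and was lower in the libraries labelled knockout, and TYMS and TK1 fell with overexpression and were higher in those libraries. RRM2 and CCNE1 were lower in both. Once GC content and length were corrected for, RFC3, TYMS and CCNE1 kept each of these calls, whereas TK1 and RRM2 kept theirs in PLC/PRF5 cells and lost those in MHCC97H cells. The 2 comparisons share no libraries. Of the 5, RFC3 alone was called in both lines whichever library was left out. In PLC/PRF5 cells TYMS and TK1 each lost the call in 3 of 6 such fits. In MHCC97H cells RRM2 and CCNE1 each lost it in 4 of 6.

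The difference between the 2 changes was tested directly over all 12 libraries, as the change in MHCC97H cells minus the change in PLC/PRF5 cells. The lines also had different perturbations, so cell line and perturbation cannot be told apart in it. The difference was called for 25 of the 40 members, 12 higher and 13 lower (62.5%). Of the 12090 genes tested, 63.8% were called, 30.4% higher and 33.4% lower. Scaling to the same total gave 9 higher and 15 lower. The difference was largest for RFC3 (-1.57 ± 0.20, adjusted p = 3.78e-05) and TK1 (1.05 ± 0.15, adjusted p = 8.20e-05), followed by CCNE2 (-0.96), FEN1 (0.91), MCM5 (0.83) and TYMS (0.79). For RRM2 (0.11 ± 0.10) and CCNE1 (0.12 ± 0.11) the difference was not called (adjusted p = 0.375 and 0.356). After the GC and length correction the values for RFC3, TYMS and MCM5 were -0.83, 0.56 and 0.41, that for TK1 was 0.25 and that for CCNE2 changed sign and was not called (0.03, adjusted p = 0.888). RRM2 was called after it (0.31, adjusted p = 0.00479). This comparison uses the same libraries as the 2 within-line comparisons and is not independent of them. Leaving out 1 library lost the call at least once for 5 of the 25, namely ORC1 (-0.43 to -0.28 over the 12 fits), CDT1 (0.35 to 0.51), MCM4 (-0.29 to -0.21), GINS4 (-0.35 to -0.21) and E2F2 (0.36 to 0.56).

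Levels in the control cells of the 2 lines differed for most members. Against vector PLC/PRF5 cells, parental MHCC97H cells had 11 members higher and 19 lower (75.0%), where 79.8% of 12046 genes were called, 38.8% higher and 40.9% lower. The cell line cannot be told apart from anything else that differed between these sets of libraries, and the vector cells had been transduced whereas the others were parental. GINS1 was at 11.8, 11.4 and 11.4 FPKM in vector PLC/PRF5 cells and at 35.2, 32.7 and 34.6 FPKM in parental MHCC97H cells (1.49 ± 0.08, adjusted p = 2.87e-07). CCND1 was at 155, 138 and 155 FPKM and at 54.3, 56.1 and 56.7 FPKM (-1.41 ± 0.08, adjusted p = 3.47e-07). MCM3 was at 106, 99.5 and 110 FPKM and at 41.4, 40.3 and 41.3 FPKM (-1.34 ± 0.07, adjusted p = 3.63e-07). E2F2, an activator with a low mRNA level, was at 8.61, 6.58 and 8.52 FPKM and at 2.53, 2.49 and 3.28 FPKM (-1.24 ± 0.13, adjusted p = 3.09e-05). These genes were chosen for the largest changes in this comparison, so the separation of their groups follows from that choice. These control libraries also enter the within-line comparisons.

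**Figure D4:**
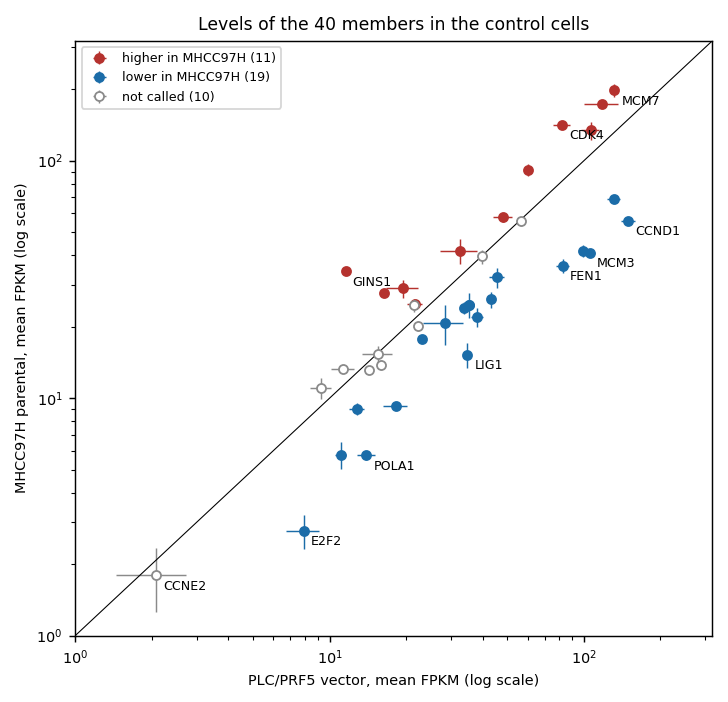
Mean FPKM of the 40 members in vector PLC/PRF5 cells (x axis) and parental MHCC97H cells (y axis), both on log scales, with SD over 3 libraries as bars and the line of equal levels. Red is called higher in MHCC97H, blue called lower and open grey not called. GINS1 lies well above the line (11.6 against 34.2 FPKM), and E2F2 (7.90 against 2.77), CCND1 (150 against 55.7) and MCM3 (105 against 41.0) lie well below it.

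Subunits of one complex differed in opposite directions between the lines. In the MCM ring, MCM7 (0.59), MCM4 (0.60) and MCM2 (0.26) were higher and MCM3 (-1.34) and MCM5 (-0.48) lower in MHCC97H cells, and the ratio of MCM3 to MCM4 FPKM was 1.75 ± 0.0454 in PLC/PRF5 and 0.449 ± 0.0331 in MHCC97H cells. In GINS, GINS1 was higher whereas GINS3 (-0.84) and GINS4 (-0.90) were lower. The 4 GINS genes summed to 55.2 ± 2.57 and 62.3 ± 1.33 FPKM, and the 6 ring genes to 430 ± 18.4 and 460 ± 19.1 FPKM. The polymerase and lagging-strand genes summed to 221 ± 3.09 FPKM in PLC/PRF5 and 135 ± 3.24 in MHCC97H cells, with FEN1 (-1.17), POLA1 (-1.15), LIG1 (-1.15) and POLD1 (-0.71) lower and PRIM1 higher (0.20). CDK4 (0.78), UHRF1 (0.73), PCNA (0.57), ORC6 (0.56), RFC4 (0.36) and TK1 (0.33) were higher in MHCC97H cells. Lower there were RRM2 (-1.24), TYMS (-0.91), E2F1 (-0.77), CDK2 (-0.51), CDT1 (-0.51), RFC2 (-0.47), CCNE1 (-0.46), RFC3 (-0.44) and CDC45 (-0.36). Of the 30 calls 26 held whichever library was left out. PRIM1 held in 1 of the 6 fits, that without vector replicate 2 (0.16 to 0.25 over the fits), and RFC3 in 2, those without replicate 1 of either group (-0.58 to -0.32). RFC4 held in 2 as well, without vector replicate 2 or parental replicate 3 (0.26 to 0.48), and MCM2 lost its call without parental replicate 2 or 3 (0.19 to 0.31). For RFC3 and RFC4 the control groups also overlapped. The GC and length correction ended the calls of CCNE1 (-0.04), CDC45 (-0.01), RFC2 (0.05) and PRIM1 (0.18). The other 10 members were not called (-0.19 to 0.23).

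Other genes of the same pathways were counted beside the members. Of 41 other replication factors, 16 were higher and 3 lower with EGR1 in PLC/PRF5 cells (39.0% and 7.32%, where all genes had 19.2% and 10.4%), and after the GC and length correction 11 and 6. Among them were the checkpoint adaptor TOPBP1 (0.78) and ATAD5 (0.88), which unloads PCNA, and at the lower end the polymerase delta subunit POLD4 (-0.47) and the histone chaperone ASF1B (-0.44). In MHCC97H cells 11 of the 41 were higher and 21 lower (26.8% and 51.2%, where all genes had 34.8% and 31.5%), and 6 and 17 after correction, with RNASEH2A (0.92) and ASF1B (0.81) at the top and ATAD5 (-1.23) and TOPBP1 (-1.08) at the bottom. RNASEH2A, ASF1B, ATAD5 and TOPBP1 kept their MHCC97H calls after correction (0.71, 0.23, -0.51 and -0.67). Of 12 other nucleotide supply enzymes, none was called by limma in PLC/PRF5 cells (1 at an unadjusted p under 0.05), against 29.6% of all genes. After correction 1 was higher and 2 lower. In MHCC97H cells 6 were higher, led by NME1 (0.77) and DTYMK (0.75), and 4 lower, led by RRM2B (-0.88) and DCK (-0.65). These are 50% and 33.3%, where all genes had 34.8% and 31.5%. After correction 5 of the 12 were higher and none lower, and NME1 alone of the 4 named was called. Of 21 other G1/S regulators tested, 4 were called in PLC/PRF5 cells, each higher, led by CDK6 (0.83) and LIN9 (0.53). That is 19% higher and 0% lower, where all genes had 19.2% and 10.4%. After correction 2 were higher and 4 lower and the median went from 0.15 to -0.05. In MHCC97H cells 3 were higher, led by CCND3 (0.96) and MYBL2 (0.72), and 11 lower, led by LIN9 (-1.06) and CDK6 (-0.97). The shares were 14.3% and 52.4%, where all genes had 34.8% and 31.5%, and after correction the counts were 2 and 6. The call for LIN9 in PLC/PRF5 cells and that for MYBL2 in MHCC97H cells were lost after correction (0.33 and 0.13). After correction all genes had 16.8% higher and 17.8% lower in PLC/PRF5 cells, and 24.3% and 22.4% in MHCC97H cells.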

How the data were processed

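Libraries of oligo(dT)-selected mRNA were treated with duplex-specific nuclease, which removes abundant cDNA, then sequenced by Illumina NovaSeq. FPKM per gene name were deposited by the authors. Their processing notes name StringTie and hg38, and the aligner and annotation are not given in the sources used here. Depth is unknown, so no counting error is given. Groups and replicate numbers were taken from the sample labels.

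Values were transformed as log2(FPKM + 1) and fitted with limma 3.58.1 in R 4.3.3 with an intensity trend. Genes entered a fit at a mean of at least 1 FPKM over its libraries (6 per comparison, 12 for the difference between the changes). Tests were 2-sided with Benjamini-Hochberg adjustment over all genes tested. The smallest p of an exact permutation test with groups of 3 is 0.1. To correct for GC content and length, a spline with 5 degrees of freedom on transcript GC content and on log length (GENCODE release 29, 84.7% of names matched, 92.8% to 93.3% of the genes tested) was removed from each library. The fits were tested on simulated data. Members and gene lists were chosen with earlier results of these data known. Per-library values are given for the 8 called members with the largest change in each within-line comparison, for those called in both and for the 4 largest between control cells, and from each other list up to 2 called genes in each direction are named. Alternatives were a pseudocount of 0.1, no filter, 2 scalings, no intensity trend, all libraries in one fit, a replicate block, the correction with and without the block, a threshold of 0.01 and leaving out each library.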

Additional observations from a re-analysis of the deposited data

Results flagged for a closer look

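The change in MHCC97H cells (knockout label minus parental) minus the change in PLC/PRF5 cells (EGR1 overexpression minus vector) passed the direct test of the difference for 25 members. It was positive for TK1 (1.05), FEN1 (0.91), MCM5 (0.83), TYMS (0.79), LIG1 (0.60), MCM7 (0.53), E2F1 (0.52), POLD1 (0.49), RFC2 (0.47), E2F2 (0.45), CDT1 (0.41) and GINS1 (0.39). It was negative for RFC3 (-1.57), CCNE2 (-0.96), POLE2 (-0.78), PRIM1 (-0.71), RFC4 (-0.64), POLA1 (-0.58), ORC6 (-0.54), MCM10 (-0.54), CCND1 (-0.50), ORC1 (-0.37), MCM6 (-0.35), GINS4 (-0.30) and MCM4 (-0.25). For ORC1, GINS4 and MCM4 neither single change was called. Across the 40 members the difference also followed transcript GC content (Spearman's rho 0.746, a description), as it did over all genes (0.733). With the GC and length correction 22 members passed, 8 positive and 14 negative. Of the 25, 13 kept their call, 10 lost it and 2 were called in the other direction (CDT1 at -0.30 and POLD1 at -0.21), and 7 other members were gained.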

How the results depend on the processing

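Over the alternatives, 2151 of 2445 recomputed fold changes kept a call in the same direction or stayed uncalled. Those that stayed uncalled were counted whatever their sign. Of the rest, 208 lost and 48 gained a call, and 38 changed sign with a call on either side. In PLC/PRF5 cells 6 members were called without the filter on low values and 1 at an adjusted p under 0.01. Leaving out 1 library gave 3 to 10 calls there, 15 to 23 in MHCC97H cells and 26 to 30 between control cells. For the difference between the changes it gave 20 to 24. EGR1 was called higher in every such within-line fit in both lines. In MHCC97H cells 14 members were called at an adjusted p under 0.01. Scaling to the same total gave 14 higher and 18 lower between control cells and 9 higher and 15 lower for the difference between the changes. The GC and length correction reversed CDT1 (-0.52), MCM2 (-0.26), MCM3 (-0.15), MCM7 (-0.0202), CDC45 (-0.26), GINS1 (0.40), RFC2 (-0.11), POLD1 (-0.12), POLE (-0.26), RRM1 (0.0448), TK1 (-0.0692), E2F1 (-0.0869) and, with the block, CCNE2 (0.32) in MHCC97H cells. It reversed RFC2 between control cells (0.0538) and, for the difference between the changes, CDT1 (-0.30), MCM6 (0.0914), POLD1 (-0.21), E2F1 (-0.16) and CCNE2 (0.0306). Quantile normalization reversed MCM6 (0.20) and RRM1 (0.21) between control cells. Except for what the correction removes by construction, the cause was not tested. The deviations of same-numbered libraries correlated at -0.132, 0.136 and -0.076 in PLC/PRF5 cells and at 0.032, 0.030 and 0.467 in MHCC97H cells. Those of unlike number ran from -0.165 to 0.205 and from -0.408 to 0.381. Deviations taken from the mean of only 3 libraries depend on one another, so these values cannot decide whether the numbers pair the libraries. With the replicate block 9 members were called in PLC/PRF5, 25 in MHCC97H, 28 between control cells and 23 for the difference. The depth behind the FPKM is unknown, which limits what can be said of CCNE2 most.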

Other observations

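Genes that act after replication were counted in the same fits. Of 35 G2 and mitosis genes, 5 were higher and 10 lower with EGR1 overexpression in PLC/PRF5 cells. These are 14.3% and 28.6%, where all genes had 19.2% and 10.4%. The securin gene PTTG1 fell from 146 to 87.9 FPKM (-0.73, adjusted p = 0.00117) and the mitotic kinase gene PLK1 from 59.5 to 38.4 FPKM (-0.62, adjusted p = 0.00116). The kinetochore genes CENPE (0.93) and CENPF (0.74) were higher. In MHCC97H cells 11 of the 35 were higher, led by AURKB (0.74) and CENPA (0.70), and 19 lower, led by the spindle motor KIF11 (-1.35) and CENPE (-1.29). The shares were 31.4% and 54.3%, where all genes had 34.8% and 31.5%. After the GC and length correction the counts were 4 and 15 in PLC/PRF5 cells, where all genes had 16.8% and 17.8%. In MHCC97H cells they were 6 and 12, where all genes had 24.3% and 22.4%, and CENPE was no longer called there (-0.44).

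Among CDK inhibitors, CDKN2C, which blocks CDK4 and CDK6, was lower with EGR1 in PLC/PRF5 cells (7.90 to 5.31 FPKM, -0.49, adjusted p = 0.0299) and higher in the MHCC97H libraries labelled knockout (4.58 to 13.0 FPKM, 1.32, adjusted p = 7.67e-05), and both calls held after correction (-0.46 and 0.82). CDKN2D was also higher in those libraries (1.09), and CDKN1C (-0.71) and CDKN2B (-0.50) were lower. Of the DNA methylation factors other than UHRF1, HELLS was lower in the libraries labelled knockout (21.6 to 7.89 FPKM, -1.34, -0.72 after correction), as was UHRF2 (-0.47), while DNMT1 was higher (0.43), and UHRF2 was higher with EGR1 in PLC/PRF5 cells (0.47). After correction CDKN2D, DNMT1 and UHRF2 were no longer called in MHCC97H cells (0.38, 0.12 and -0.18). Among the liver markers, APOA1 rose with EGR1 overexpression from 3.18 to 113 FPKM (4.80, adjusted p = 1.44e-06). ALB was higher in the libraries labelled knockout (0.885 to 15.2 FPKM, 3.11, adjusted p = 1.61e-06). Of the 6 liver markers tested in MHCC97H cells, 5 were called higher and none lower, where all genes had 34.8% and 31.5%. HNF4A was not called (-0.26). After correction 4 were higher and 1 lower, where all genes had 24.3% and 22.4%. The markers did not all rise, as APOB, too low to be tested there, had a median of 1.21 FPKM in parental libraries and 0.151 in those labelled knockout. SERPINA1 was higher (0.89) and TF lower (-0.46) with EGR1, LUM was lower in the libraries labelled knockout (-2.14), PECAM1 was lower with EGR1 (-0.45) and CD14 was higher in the libraries labelled knockout (0.56, and -0.03 after correction).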
